A study of Mus musculus with 12 samples.

Results

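The angiopoietin and VEGF ligands and receptors were followed in hearts and cardiomyocytes that had lost Med30, a subunit of the Mediator complex that links transcription factors to RNA polymerase II. The set held 10 genes, named beforehand in both expression tables, of 20775 genes listed in each. It comprised 5 ligands (Angpt1, Angpt2, Vegfa, Vegfb and Vegfc) and 5 receptors (Tek, which encodes TIE2, Tie1, Kdr, which encodes VEGFR2, Flt1, which encodes VEGFR1, and Flt4, which encodes VEGFR3). The set was selected on its gene families and with the RPKM differences between knockout and Ctrl in both tables already known, so its fold changes are given as a description, without p-values.

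RNA-seq was done on 12 C57BL/6 mouse samples in 4 groups of 3. In embryos at E10.5, whole hearts with the genotype Tnnt-Cre; Med30 f/f (cKO), in which Cre is active in cardiomyocytes, were compared with those of Cre-negative Med30 f/f littermates (Ctrl). In adults, cardiomyocytes were isolated by collagenase perfusion 4 weeks after tamoxifen (TAM), at an age of 3 months, from Med30 f/f mice with the tamoxifen-inducible cardiomyocyte transgene αMHC-MerCreMer (icKO) and from Med30 f/f mice without Cre that also received tamoxifen (Ctrl). The labels name the heart as the source of the adult samples, while their extraction text and the study's methods speak of cardiomyocytes. Both control groups, which the labels call wild type, carried the floxed allele. No Cre-only group was analysed here, so an effect of Cre itself on RNA levels cannot be told apart from loss of Med30. For αMHC-MerCreMer mice without a floxed allele, the study reported that tamoxifen brought neither mortality nor cardiac dysfunction. The sources used here do not say whether each sample was a separate animal or a pool, so the spread between samples may be partly technical.

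Angiopoietin-1, made by mural and other perivascular cells and by cardiomyocytes, activates the receptor tyrosine kinase TIE2 on endothelial cells, whereas angiopoietin-2 in many settings opposes it, and TIE1 is a related receptor that modulates TIE2. VEGF-A acts through VEGFR2 to drive endothelial growth and sprouting, while VEGFR1 binds VEGF-A and VEGF-B and can act as a decoy, and VEGF-C acts mainly through VEGFR3. In the heart, cardiomyocytes are a major source of VEGF-A and VEGF-B, and the receptors are made largely by endothelial and endocardial cells.

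Endothelial genes are commonly controlled by ETS transcription factors, whose core site is GGAA. Promoter sequence is shown for the receptors Kdr, Flt1 and Tek, and match counts are given for all 5 receptors. Each is the 250 bases before the RefSeq transcript start in GRCm38.p6, 5′ to 3′ on the strand of the gene. The Kdr window lies at chr5:75978456-75978705 on the minus strand, the Flt1 window at chr5:147726012-147726261 on the minus strand and the Tek window at chr4:94739039-94739288 on the plus strand. Capitals mark GGAA on either strand, so that a match on the other strand reads TTCC.
Kdr: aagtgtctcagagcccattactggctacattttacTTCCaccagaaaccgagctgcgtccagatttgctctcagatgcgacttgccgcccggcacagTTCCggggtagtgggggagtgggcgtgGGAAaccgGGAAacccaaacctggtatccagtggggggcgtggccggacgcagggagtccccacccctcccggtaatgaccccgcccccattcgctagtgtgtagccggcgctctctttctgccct
Flt1: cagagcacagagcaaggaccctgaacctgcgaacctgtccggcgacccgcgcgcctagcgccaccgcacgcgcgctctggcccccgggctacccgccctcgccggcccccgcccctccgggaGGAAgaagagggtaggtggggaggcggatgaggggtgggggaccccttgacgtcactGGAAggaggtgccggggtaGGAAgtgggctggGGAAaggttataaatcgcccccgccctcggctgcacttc
Tek: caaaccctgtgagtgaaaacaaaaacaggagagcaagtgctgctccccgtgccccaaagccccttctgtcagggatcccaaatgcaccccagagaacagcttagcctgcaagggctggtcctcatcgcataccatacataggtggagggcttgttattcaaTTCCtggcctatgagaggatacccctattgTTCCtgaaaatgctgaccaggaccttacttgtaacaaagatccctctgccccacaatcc
The Kdr and Flt1 windows each held 4 matches and the Tek and Flt4 windows 2 each, while the Tie1 window held 7. These letters are common, since 93.4% of 32851 promoter windows of the same length held at least 1 match, with a median of 3. At least 4 were held by 33.4% of windows and at least 7 by 3.82%. The core of the hypoxia response element, searched as ACGTG or GCGTG on both strands, was present in 38.6% of windows. It matched at 2 places in the Kdr window, at 2 in the Vegfb window and at 1 in the Flt1 window. No match was found in the Tek, Tie1, Flt4 or Vegfc windows. Of the 2 Vegfa windows, the upstream one (chr17:46032378-46032627, minus strand) held none and the internal one (chr17:46025164-46025413) held 2. The internal window lies within the gene body (chr17:46016993-46032369), so its 2 matches are not upstream of the gene and are not read as promoter sites. Promoter windows were found for 8 of the 10 genes, and Angpt1 and Angpt2 had no entry.

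Values are RPKM (mapped reads scaled to library size and transcript length), which can be compared between genes. The spacing of low values placed depth at about 11990000 to 20050000 reads per sample. For a transcript of 2 kb, 3 reads then correspond to at most 0.125 RPKM, a limit that covers counting error only. Med30 itself, the targeted gene, was at 10.6, 13.3 and 11.3 RPKM in the E10.5 Ctrl samples and at 1.38, 2.02 and 1.004 in cKO. In adult cardiomyocytes it was at 7.66, 7.45 and 7.66 in Ctrl and at 3.81, 3.16 and 1.82 in icKO, so all samples stood on the side their labels gave. The cardiomyocyte markers (9 genes, among them Tnnt2, Myh6 and Actc1) summed to 4462 to 5833 RPKM in E10.5 Ctrl hearts and 20307 to 21496 RPKM in adult Ctrl samples.

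In the controls, receptors stood among the highest genes of the set at E10.5, whereas ligands led in adult cardiomyocytes. At E10.5 the order of mean levels was Vegfb (28.6 ± 4.82 RPKM, SD, n = 3), Tek (24.8 ± 3.90), Vegfa (23.4 ± 1.43), Kdr (19.8 ± 3.95), Angpt1 (19.1 ± 0.805) and Tie1 (15.1 ± 1.29), with Flt1 (5.06), Vegfc (3.65), Flt4 (2.94) and Angpt2 (1.82) below them. The ranges of the first 5 overlapped from neighbour to neighbour, whereas Angpt1 and Tie1, Tie1 and Flt1, Flt1 and Vegfc, and Flt4 and Angpt2 did not overlap. In adult Ctrl cardiomyocytes 3 ligands led, with Vegfb at 131.7 ± 5.03 RPKM, Vegfa at 58.3 ± 15.6 and Angpt1 at 5.78 ± 0.970, and these 3 did not overlap with each other or with Kdr, the next gene. The receptors Kdr (2.63 ± 1.96), Flt1 (2.21 ± 1.16), Tie1 (1.96 ± 1.18) and Tek (1.05 ± 0.510) overlapped from neighbour to neighbour. Flt4 (0.246), Vegfc (0.191) and Angpt2 (0.144) were the lowest, and the lowest Ctrl sample rested on about 2 reads for Angpt2, 3 for Vegfc and 8 for Flt4. Mean Ctrl levels at E10.5 were 23.6 times the adult level for Tek, 19.1 times for Vegfc, 12.7 times for Angpt2, 11.9 times for Flt4, 7.67 times for Tie1, 7.54 times for Kdr, 3.298 times for Angpt1 and 2.29 times for Flt1, whereas adult levels were 4.60 times the embryonic level for Vegfb and 2.49 times for Vegfa. The tables were made separately from whole hearts and from isolated cells, so these ratios were not tested.

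Of the angiopoietin ligands, Angpt1 was lower in both knockouts. In E10.5 Ctrl hearts Angpt1 (chr15:42424723-42676977, minus strand) was at 19.997, 18.5 and 18.7 RPKM, and in cKO hearts at 5.12, 4.64 and 2.84. The groups were far apart, and the cKO sample of replicate 3 was the lowest. The mean fell by 78.0%, with a log2 fold change of -2.20 (SE 0.196). In adult Ctrl cardiomyocytes Angpt1 was at 5.44, 5.03 and 6.88 RPKM, and in icKO at 0.561, 0.373 and 0.405. The icKO values rested on about 40, 27 and 21 reads, against about 306, 377 and 497 in Ctrl, and again no icKO sample came near a Ctrl sample. The Ctrl mean was 13.0 times the icKO mean, with a log2 fold change of -3.43 (SE 0.197). With RPKM as deposited, Angpt1 was the only gene of the set to pass the call rule (an adjusted p from limma under 0.05 with at least a doubling or halving), and it did so at both stages. That was 1 of 10 genes tested at E10.5, where 0.542% of 10885 genes were called lower, and 1 of 7 tested in adults, where 8.45% of 9517 were. No gene of the set was called higher at either stage, where 0.239% of all genes were called higher at E10.5 and 28.0% in adults. Since the set was chosen with these contrasts known, nothing is read from these counts. Without the filter on low values the E10.5 call was lost, in a fit of 20775 genes that called 1 gene in all.

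**Figure D1:**
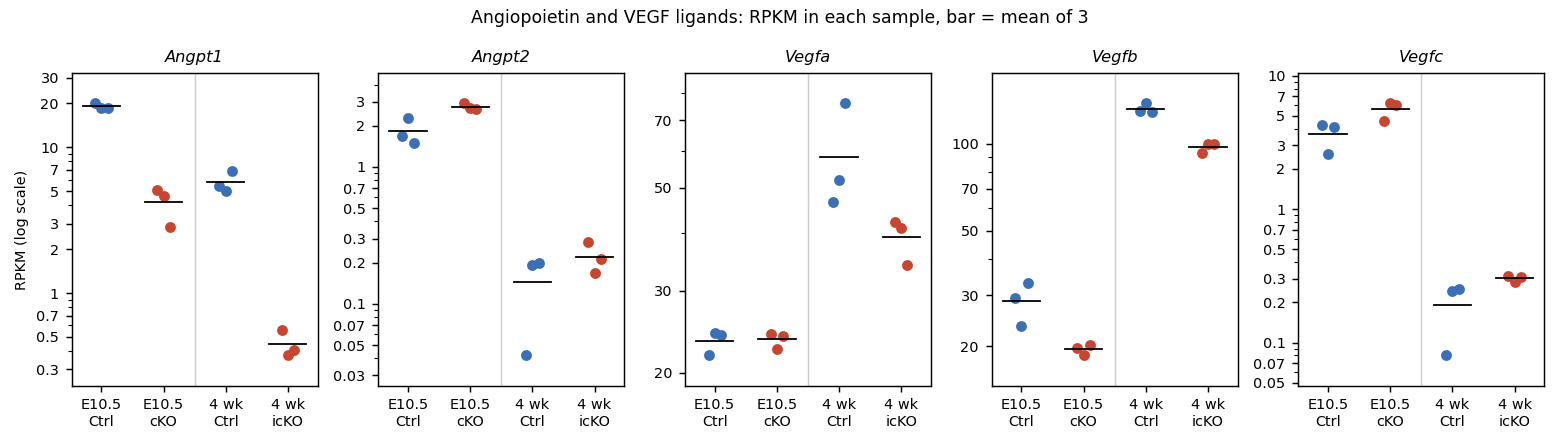
RPKM (log axis, a different range in each panel) of the 5 ligands in the 12 samples, with Ctrl in blue, knockout in red and the mean of 3 as a bar. Angpt1 was lower in all 6 knockout samples than in the Ctrl samples of its stage, Vegfb was lower in both knockouts, and Vegfa was lower in icKO, while its E10.5 groups overlapped.

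Angpt2, the context-dependent antagonist, did not follow Angpt1. At E10.5 it was at 1.69, 2.28 and 1.495 RPKM in Ctrl and at 2.91, 2.69 and 2.63 in cKO. The groups did not overlap, but the log2 fold change of 0.58 (SE 0.203) did not pass the call rule. In adult cardiomyocytes Angpt2 was at 0.042, 0.191 and 0.198 RPKM in Ctrl and at 0.282, 0.167 and 0.211 in icKO, which corresponds to about 2 to 17 reads a sample. It was below the filter for testing there, and its groups overlapped.

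Within a sample, the ratio of Angpt2 to Angpt1 was higher in the knockouts at both stages. It takes in the lower Angpt1 given above (log2 fold change -2.20 at E10.5 and -3.43 in adults) and is not a separate result. The log2 ratio of Angpt2 to Angpt1 was -3.49, -2.97 and -3.56 in E10.5 Ctrl hearts and -0.80, -0.77 and -0.11 in cKO hearts. In adult cardiomyocytes it was -5.29, -4.14 and -4.55 in Ctrl and -0.79, -0.83 and -0.70 in icKO. The groups stood apart at both stages, by 2.78 and 3.89 on the log2 scale, and all 6 knockout samples kept more Angpt1 than Angpt2 RNA. The ratios include a pseudocount of 0.1 RPKM, which weighs on the few adult Angpt2 reads given above. Without it the groups also stood apart, by 2.84 at E10.5 and 4.59 in adults, where Ctrl replicate 1 went from -5.29 to -7.02.

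Vegfa differed between the stages in how its groups lay. At E10.5 it was at 21.8, 24.4 and 24.1 RPKM in Ctrl and at 24.2, 22.5 and 24.0 in cKO. The groups overlapped, and the log2 fold change was 0.01 (SE 0.104). In adult cardiomyocytes Vegfa was at 46.7, 52.1 and 76.0 RPKM in Ctrl and at 42.3, 41.0 and 34.2 in icKO. Every icKO sample lay below every Ctrl sample, although the nearest were 42.3 and 46.7, and Ctrl replicate 3 was well above the others. The log2 fold change was -0.55 (SE 0.171), which passed an adjusted p under 0.05 but not the fold threshold. Without Ctrl replicate 3 it was -0.34, and without icKO replicate 3 it was -0.45 and no longer passed. The difference between the stages was not tested.

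Vegfb, a ligand of VEGFR1, was lower in both knockouts without overlap. At E10.5 it was at 29.4, 23.5 and 33.0 RPKM in Ctrl and at 19.7, 18.6 and 20.3 in cKO, with no overlap. The log2 fold change was -0.53 (SE 0.135) and did not pass, except without Ctrl replicate 2 or among genes with a mean RPKM above 5. In adults Vegfb was at 129.7, 137.4 and 127.9 RPKM in Ctrl and at 92.9, 99.5 and 99.5 in icKO. The replicates lay close together and the groups were well apart, with a log2 fold change of -0.44 (SE 0.0709) that passed an adjusted p under 0.05 but not the fold threshold. Vegfc, the ligand of VEGFR3, went the other way at E10.5, with 4.27, 2.58 and 4.12 RPKM in Ctrl and 4.57, 6.18 and 5.99 in cKO. Its groups did not overlap, and its log2 fold change of 0.62 (SE 0.210) did not pass the call rule. In adult cardiomyocytes Vegfc was at 0.080, 0.242 and 0.251 RPKM in Ctrl and at 0.315, 0.286 and 0.311 in icKO, without overlap, but on about 3 to 13 reads a sample, and was not tested.

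In counts, 1 of 10 genes at E10.5 passed an adjusted p under 0.05 on the lower side, against 3.45% of all genes, and 0 on the higher side, against 0.864%. In adults 3 of 7 tested genes passed on the lower side (Angpt1, Vegfa and Vegfb), against 18.1% of all genes, and 0 on the higher side, against 60.6%. Groups did not overlap for 2 genes lower and 2 higher of 10 at E10.5, where 22.6% and 6.50% of tested genes did not. Among the 7 tested adult genes 3 were lower without overlap and 0 higher, where 18.9% and 62.0% of tested genes were, and of the 3 below the filter Vegfc and Flt4 were higher without overlap. All 5 non-overlapping differences of tested ligands in the lower direction came from Angpt1, Vegfb and, in adults, Vegfa.

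The receptors at E10.5 showed no separation of the groups. Tek was at 29.3, 23.3 and 21.9 RPKM in Ctrl and at 22.3, 25.9 and 24.8 in cKO, a log2 fold change of -0.02 (SE 0.132). Kdr was at 24.2, 18.7 and 16.5 RPKM in Ctrl and at 16.7, 21.2 and 19.994 in cKO, a log2 fold change of -0.03 (SE 0.156). Both overlapped, and under the other 3 scalings both log2 fold changes lay above 0, at 0.09 to 0.15. Tie1 ranged from 13.6 to 16.1 RPKM in Ctrl and from 14.96 to 19.7 in cKO, Flt1 from 4.47 to 5.39 and from 5.04 to 6.13, and Flt4 from 2.62 to 3.16 and from 2.80 to 4.52. Their log2 fold changes were 0.14 (SE 0.135), 0.11 (SE 0.140) and 0.17 (SE 0.205), none passed the call rule, and the ranges of all 5 receptors overlapped. The 10 endothelial markers (among them Pecam1, Cdh5 and Emcn) summed to 152.1 to 201.6 RPKM in Ctrl and 187.7 to 199.0 in cKO, and 0 of the 8 tested were called in either direction, with 0 at an adjusted p under 0.05. Relative to the geometric mean of the 8 tested markers, a choice made after seeing the data, all 5 receptors overlapped, for example Tek with log2 ratios of 0.40, 0.40 and 0.18 in Ctrl and 0.16, 0.17 and 0.24 in cKO. With Cldn5 and Robo4, which were below the filter, among the markers, Tek alone was lower in cKO without overlap, by 0.31.

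**Figure D2:**
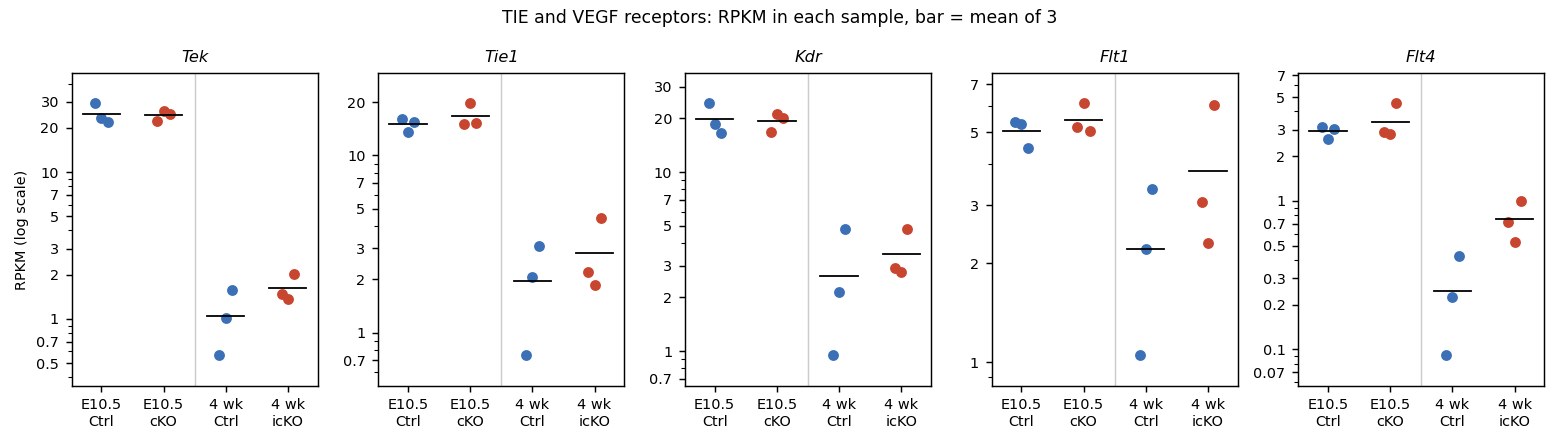
RPKM (log axis, a different range in each panel) of the 5 receptors in the 12 samples, with Ctrl in blue, knockout in red and the mean of 3 as a bar. All 5 overlapped between the groups at E10.5, and in adult cardiomyocytes Ctrl replicate 1 was lowest and icKO replicate 3 highest for each receptor.

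In adult cardiomyocytes the receptor levels spread widely within each group. Tek was at 0.564, 1.02 and 1.58 RPKM in Ctrl and at 1.49, 1.37 and 2.01 in icKO, a log2 fold change of 0.66 (SE 0.329). Kdr was at 0.945, 2.15 and 4.78 RPKM in Ctrl and at 2.91, 2.76 and 4.83 in icKO, a log2 fold change of 0.63 (SE 0.480). Ctrl replicate 3 reached nearly the highest icKO sample for Kdr. Flt1 was at 1.05, 2.21 and 3.36 RPKM in Ctrl and at 3.08, 2.30 and 6.06 in icKO, with a log2 fold change of 0.79 (SE 0.432). Tie1 was at 0.743, 2.06 and 3.09 RPKM in Ctrl and at 2.19, 1.87 and 4.44 in icKO, with a log2 fold change of 0.61 (SE 0.477). All 4 overlapped and none passed the call rule, although without Ctrl replicate 3 the log2 fold changes of Kdr (1.19), Flt1 (1.15) and Tek (0.98) had an adjusted p under 0.05. Flt4, below the filter for testing, was at 0.091, 0.224 and 0.424 RPKM in Ctrl and at 0.720, 0.532 and 1.001 in icKO, with no overlap and a mean 3.05 times the Ctrl mean.

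The same samples were low or high in the endothelial markers. These summed to 13.0, 24.8 and 33.1 RPKM in adult Ctrl samples and to 36.1, 34.1 and 65.9 in icKO, with Ctrl replicate 1 lowest and icKO replicate 3 highest, as for each receptor. None of the 10 markers was at 0 in an adult sample. Of 9 tested, 2 (Emcn and Esam) were called higher and 5 had an adjusted p under 0.05 on the higher side, beside 28.0% and 60.6% of all genes, for example Emcn (log2 fold change 1.17, SE 0.258, limma adjusted p = 0.00248). The count called higher was 0 without Ctrl replicate 1, 1 without icKO replicate 3, 3 without Ctrl replicate 2, 4 without icKO replicate 2 and 7 without Ctrl replicate 3, and it was 0 under each of the 3 other scalings. In bulk RNA, fewer cells of a type and less RNA per cell cannot be told apart, and the part of endothelial cells in the receptor values was not tested. Relative to the geometric mean of the 9 tested endothelial markers, Tek gave log2 ratios of -0.99, -1.09 and -0.94 in Ctrl and -1.04, -1.15 and -1.51 in icKO. The SD among the Ctrl samples was 0.0772 for this ratio, against 0.672 for log2 Tek alone, and the groups overlapped. Tie1, Kdr and Flt1 overlapped on this scale too. With Ecscr, which was below the filter, among the markers, Tek was lower in icKO without overlap, by 0.39, so that its separation rested on that marker. Flt4 was higher in icKO without overlap, by 0.49 against the tested markers and by 0.33 with Ecscr. The decoy receptor and the main receptor kept their ranges to each other, with log2 ratios of Flt1 to Kdr between -2.15 and -1.66 in all E10.5 samples and between -0.50 and 0.32 in all adult samples, with overlap at both stages.

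**Figure D3:**
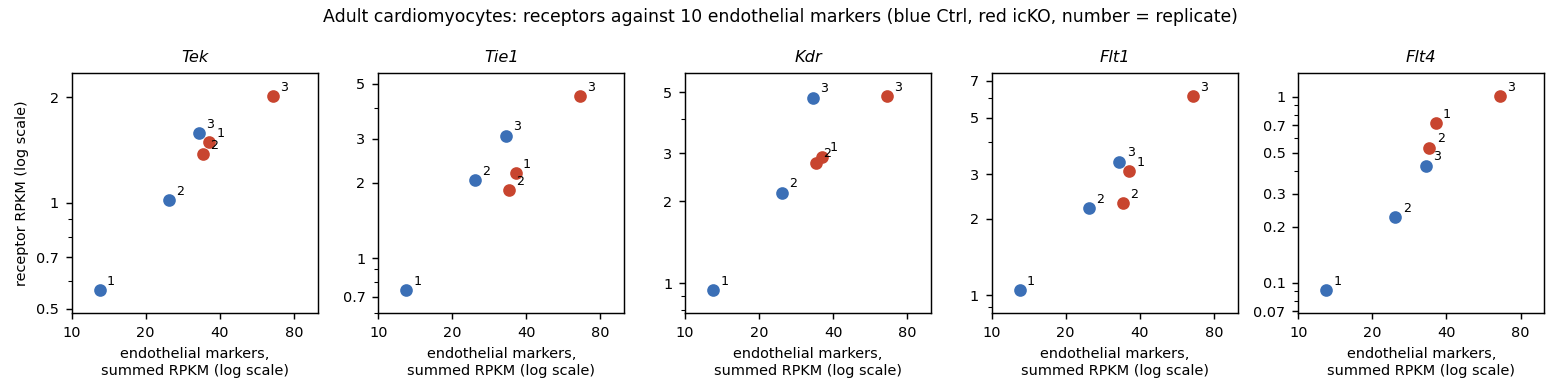
Receptor RPKM against the summed RPKM of 10 endothelial markers (both axes logarithmic) in the 6 adult samples, with Ctrl in blue, icKO in red and the replicate number beside each point. In each panel Ctrl replicate 1 is lowest, at a marker sum of 13.0 RPKM, and icKO replicate 3 is highest, at 65.9 RPKM.

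Vegfa RNA relative to that of its receptors was lower in adult knockout samples. The log2 ratio of Vegfa to Kdr was 5.48, 4.54 and 3.96 in Ctrl and 3.82, 3.84 and 2.80 in icKO, a difference of -1.18 with no overlap, although Ctrl replicate 3 lay just above the icKO samples. The ratio of Vegfa to Flt1 was lower by 1.33 without overlap. Kdr (log2 fold change 0.63, SE 0.480) and Flt1 (0.79, SE 0.432) overlapped between the groups and were not called. Both had the same lowest and highest samples as the endothelial markers. The part of endothelial RNA in these ratios was not tested. At E10.5 the ratio of Vegfa to Kdr ranged from -0.15 to 0.54 in Ctrl and from 0.09 to 0.54 in cKO and overlapped.

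**Figure D4:**
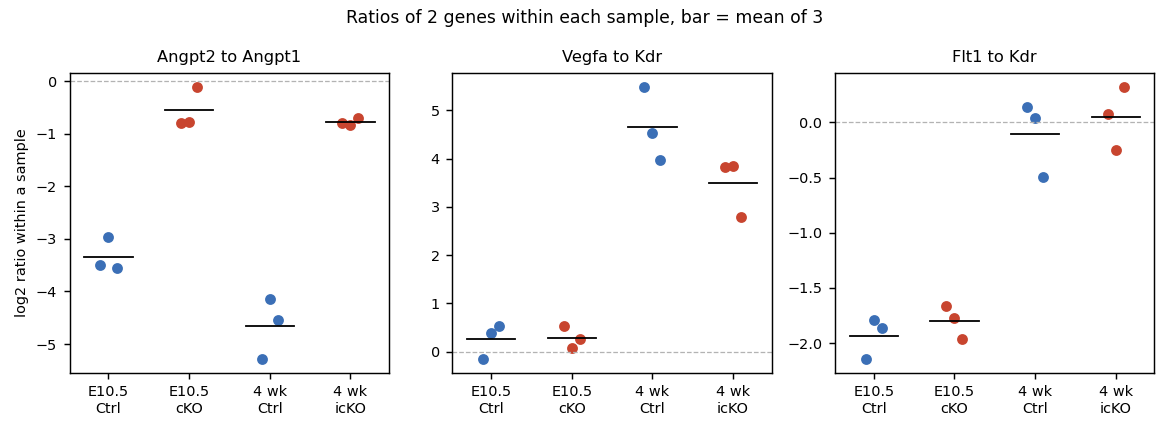
Log2 ratio within each sample of Angpt2 to Angpt1, Vegfa to Kdr and Flt1 to Kdr, with Ctrl in blue, knockout in red, the mean of 3 as a bar and a dashed line at equal levels. Angpt2 to Angpt1 was higher in knockout samples at both stages, Vegfa to Kdr was lower in icKO and overlapped at E10.5, and Flt1 to Kdr overlapped at both stages.

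The scaling of the adult table bears on these values. With RPKM as deposited, 2668 adult genes were called higher and 804 lower. The study, with DESeq2 on normalized counts and the same thresholds, instead reported more adult genes lower than higher. Median-ratio scaling here also gave more lower than higher. The median log2 fold change of all tested genes was 0.57 in adults and -0.13 at E10.5, and the median over the tested genes of the set was 0.61 and 0.06. Relative to the all-gene median, the adult receptors lay at 0.04 (Tie1) to 0.22 (Flt1), whereas Vegfa lay at -1.11, Vegfb at -1.004 and Angpt1 at -4.00. With median-ratio scaling, which brought the all-gene median to 0.01, the adult log2 fold changes were -1.11 (SE 0.169) for Vegfa and -1.002 (SE 0.0728) for Vegfb, so that both passed the call rule, and 0.07 to 0.24 for the 4 tested receptors. No tested gene of the adult set changed direction under any of the 3 other scalings.

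**Figure D5:**
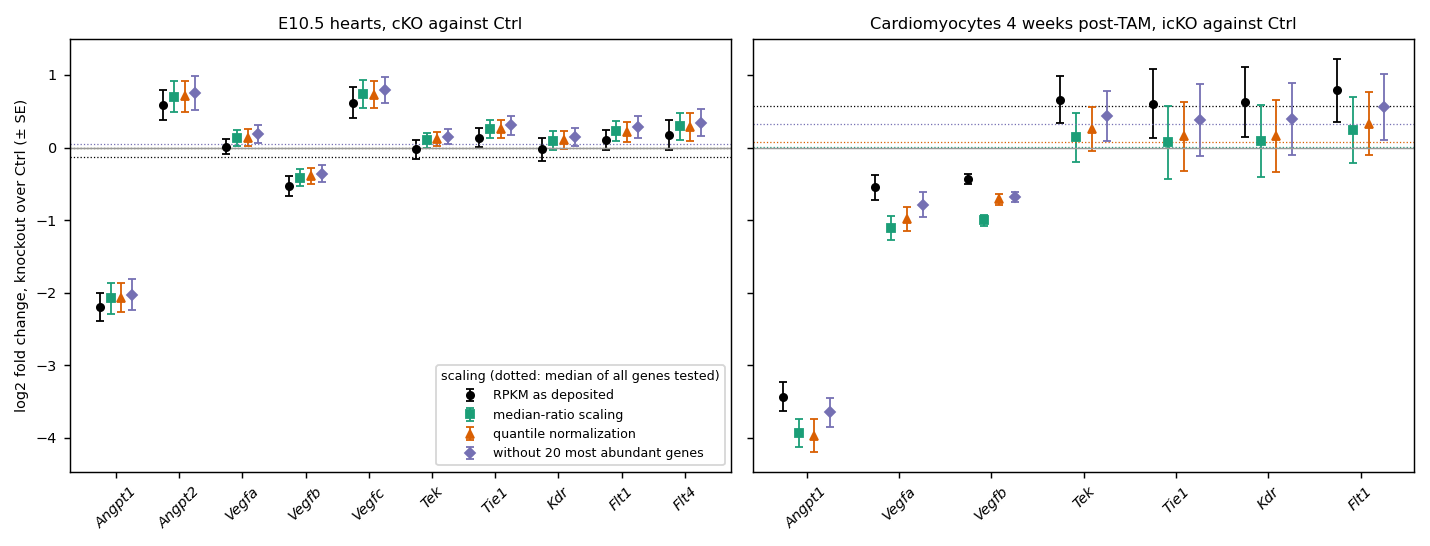
Log2 fold change (knockout over Ctrl) with its SE for each tested gene of the set under 4 scalings, with the all-gene median of each scaling as a dotted line. Angpt1, Vegfa and Vegfb lay below the all-gene median in adults under each scaling, while the 4 receptors lay 0.04 to 0.25 above it.

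Other cell types moved with the groups as well. The adult calls below, with RPKM as deposited, stand beside 28.0% of all genes called higher and 8.45% called lower. In adult samples the cardiomyocyte markers summed to 20307 to 21496 RPKM in Ctrl and 7931 to 9796 in icKO, with 5 of 9 called lower (Myh6, Ryr2, Tnni3, Myl3 and Actc1; 7 with median-ratio scaling, 3 lower and 1 higher with quantile normalization). Actn2 (log2 fold change 0.86, SE 0.0900) and Nkx2-5 (0.74, SE 0.107) went the other way with an adjusted p under 0.05 but did not reach the fold threshold. The fibroblast markers (7 genes) summed to 4.33 to 7.49 RPKM in Ctrl and 52.2 to 73.5 in icKO, with 4 of 4 tested called higher (3 under each of the other scalings). Of these, Col1a1, Col3a1 and Postn had Ctrl means of 0.435, 0.909 and 0.367 RPKM. They passed the filter only through icKO, which fixed their direction, so nothing is read from this count. The macrophage markers (7 genes) summed to 1.93 to 2.69 and to 5.12 to 6.00 RPKM, with 1 of 2 tested called higher (2 without Ctrl replicate 3, 0 with median-ratio or quantile scaling). Those tested, C1qa and C1qb, likewise passed the filter only through icKO (Ctrl means 0.837 and 0.595 RPKM). Of the mural markers, from cells that also make Angpt1, 2 of 4 tested were called higher in adults, (1 without Ctrl replicate 1 or icKO replicate 3, and 3 without Ctrl replicate 3 or icKO replicate 2), while their sum overlapped (47.8 to 72.8 and 47.8 to 80.9 RPKM). Acta2 made up 82.1% of that sum in Ctrl and had a log2 fold change of -0.39 (SE 0.241), and without it, a choice made after seeing the data, the sum was 6.17 to 15.9 RPKM in Ctrl and 20.1 to 38.3 in icKO. At E10.5 no marker of any list was called. The epicardial marker Tbx18 was lower in cKO but did not reach the fold threshold (log2 fold change -0.95, SE 0.198, limma adjusted p = 0.0328). Without cKO replicate 2, 1 epicardial marker was called lower at E10.5. With the replicate number as a block, 2 erythroid markers were called higher at E10.5. There the sum of the mural list, 95.9% of it Acta2 in Ctrl, was higher in cKO (442.1 to 522.5 RPKM) than in Ctrl (362.3 to 395.3). It was also higher without Acta2 (19.6 to 20.6 against 14.6 to 17.045), while Rgs5 had a log2 fold change of -0.24 (SE 0.403). Myh11 and Kcnj8, at most 0.741 and 0.246 RPKM at E10.5, were below the filter. The sum is therefore not taken as a measure of mural cells. The cardiomyocyte sum was lower (3629 to 4319 against 4462 to 5833), and the erythroid sum overlapped with cKO replicate 1 highest at 2119 RPKM. The lymphatic, endocardial and epicardial sums overlapped at both stages, as did the adult erythroid sum and the fibroblast and macrophage sums at E10.5. In adults the lymphatic sum was mostly Prox1 (9.64 to 13.2 RPKM), the only gene of its list tested, and 0 epicardial markers were tested. Lyve1, Pdpn, Reln and Ccl21a were below 1 RPKM in every adult sample, so that sum is not taken as a measure of lymphatic cells. Of 3 endocardial markers tested in adults, 1 was called higher (0 with a pseudocount of 1). It was Plvap (log2 fold change 1.57, SE 0.233, limma adjusted p = 0.000224), which passed the filter only through icKO (Ctrl mean 0.550 RPKM). Ccl21a, a lymphatic marker, was at 0 in all E10.5 samples. The part of these cell types in the levels of Angpt1, Vegfa, Vegfb and Vegfc was not tested.

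Beyond the set, 106 genes of the same pathways were counted by role. Calls, and the words rose and fell, refer to RPKM as deposited unless another scaling is named. Among coreceptors and other ligands, 0 of 5 tested were called at E10.5. In adults, beside 28.0% of all genes called higher and 8.45% lower, 1 of 2 was called. That gene was Ptprb, which encodes VE-PTP, an endothelial phosphatase that acts on TIE2. It rose from 0.989, 2.38 and 2.94 RPKM in Ctrl to 3.62, 3.43 and 7.53 in icKO (log2 fold change 1.204, SE 0.406, limma adjusted p = 0.0220), with the same lowest and highest samples as the receptors. The call was lost without Ctrl replicate 1 (0.76), without icKO replicate 3 (0.85, limma adjusted p = 0.0905) and under the 3 other scalings (0.66 to 0.97). Nrp1, a VEGF coreceptor, was at 8.70, 11.9 and 10.4 RPKM in adult Ctrl and at 6.84, 7.63 and 7.08 in icKO, a log2 fold change of -0.51 (SE 0.125, limma adjusted p = 0.00453) that did not reach the fold threshold, whereas with median-ratio scaling (-1.07) it did.

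Of the hypoxia response genes, the class that includes Vegfa itself, 0 rose and 1 fell of 23 tested at E10.5, beside 0.239% and 0.542% of all genes. In adults 5 rose and 2 fell of 20, beside 28.0% and 8.45% of all genes. The gene that fell at E10.5 was Slc2a1, the glucose transporter GLUT1, at 98.7, 139.5 and 112.7 RPKM in Ctrl and 43.0, 35.5 and 57.7 in cKO (log2 fold change -1.38, SE 0.191, limma adjusted p = 0.0112), and without Ctrl replicate 3 this call was lost. At an adjusted p under 0.05 alone, 5 were lower there, namely Slc2a1, Hif1a, Pgk1, Bnip3 and Pdk1, beside 3.45% of all genes. On the higher side there were 0, beside 0.864%, while the Vegfa groups overlapped. The count on the lower side was 0 without Ctrl replicate 3, 1 without cKO replicate 1 or 2, 2 without Ctrl replicate 1, 3 without Ctrl replicate 2 and 6 without cKO replicate 3. In adults, Adm, which encodes the vasodilator adrenomedullin, rose (log2 fold change 2.603, SE 0.217, limma adjusted p = 6.37e-06), as did Ero1l (1.99, SE 0.131). Adm passed the filter only through icKO (Ctrl mean 0.681 RPKM), which fixed its direction. Vldlr, a lipoprotein receptor, and Egln1, the oxygen sensor PHD2, fell, with log2 fold changes of -1.20 (SE 0.0746) and -1.19 (SE 0.0750). Slc2a1 was higher in adult icKO, at 7.72 to 11.98 RPKM against 2.91 to 4.56 in Ctrl. Of the 20 hypoxia genes tested in adults 16 had a log2 fold change above 0, with a median of 0.71 beside 0.57 for all genes, and with median-ratio scaling 13 did, with a median of 0.15 beside 0.01. With median-ratio scaling the adult calls of this list were 2 higher and 3 lower, and without icKO replicate 2 they were 8 and 2.

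Downstream of the receptors, 0 of 20 tested signalling genes were called at E10.5, and 10 rose and 3 fell of 19 in adults, beside 28.0% and 8.45% of all genes. Shb, an adaptor of VEGFR2, rose in adults from 3.72, 5.46 and 8.23 RPKM to 27.8, 26.7 and 23.6 (log2 fold change 2.21, SE 0.238, limma adjusted p = 2.92e-05), and Ptk2, which encodes focal adhesion kinase, rose by 1.43 (SE 0.113). Pik3r1, the regulatory subunit of PI3-kinase, fell from 65.4, 48.4 and 40.5 RPKM to 7.85, 7.49 and 7.61 (log2 fold change -2.70, SE 0.155, limma adjusted p = 9.06e-07). Grb14, an adaptor that binds TIE2, had a log2 fold change of -1.33 (SE 0.119) in adults and of -0.79 (SE 0.121, limma adjusted p = 0.0177) at E10.5, where the adjusted p rose above 0.05 without any 1 of Ctrl replicates 1 and 3 and cKO replicates 1 and 2. With median-ratio or quantile scaling 1 signalling gene was called higher in adults, and Ptk2 lay at 0.88 and 0.90. These genes are widely expressed, and the cell type behind each value was not tested.

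The transcription factors of endothelial cells gave 0 calls of 18 tested at E10.5, and 4 rose and 0 fell of 10 in adults, beside the same 28.0% and 8.45%, among them Klf4 (log2 fold change 2.11, SE 0.253) and the ETS factor Ets1 (1.33, SE 0.309). Fli1 and Elk3, also called higher, passed the filter only through icKO (Ctrl means 0.697 and 0.703 RPKM). With median-ratio scaling 1 rose (Klf4) and 2 fell, and the count that rose was also 1 without Ctrl replicate 1 and 2 without icKO replicate 3. Of the sprouting and Notch genes, 0 of 9 were called at E10.5, and in adults 1 of 6 rose and 1 fell, beside 28.0% and 8.45%. The one that rose was Unc5b, a netrin receptor of sprouting vessels, at 0.193 to 0.532 RPKM in Ctrl and 6.12 to 9.96 in icKO (log2 fold change 4.02, SE 0.304, limma adjusted p = 3.62e-06). Unc5b passed the filter only through icKO, which fixed its direction. The tested gene that fell was Plxnd1, a semaphorin receptor (-1.04, SE 0.305, limma adjusted p = 0.0113). Its fall was less than the fold threshold without Ctrl replicate 3 (-0.95) or icKO replicate 2 (-0.68). Among genes below the filter, Apln was at 1.58, 1.33 and 1.57 RPKM in Ctrl and at 0.075, 0.151 and 0.185 in icKO, without overlap. Cxcr4, also below the filter, was higher in icKO without overlap. Without Ctrl replicate 3, 3 of this list rose, and without icKO replicate 2, 2 did. Of other angiogenic factors and inhibitors, 0 of 13 were called at E10.5, and in adults 0 rose and 5 fell of 13, beside 28.0% and 8.45%. These included the growth factors Fgf16, from 1.61, 2.96 and 3.15 RPKM to 0.194, 0.372 and 0.301 (log2 fold change -2.75, SE 0.314, limma adjusted p = 4.20e-05), and Fgf2 (-2.05, SE 0.302). Fgf16, Fgf2 and Angptl4, also called lower, passed the filter only through Ctrl, which fixed their direction. Over all 6 lists, 0 rose and 1 fell of 88 tested at E10.5, beside 0.239% and 0.542% of all genes, and 21 rose and 11 fell of 70 in adults, beside 28.0% and 8.45%. The adult balance turned with scaling, to 5 that rose and 15 that fell with median-ratio scaling, 6 and 15 with quantile normalization, and 11 and 13 without the 20 most abundant genes.

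Likeness was measured as Pearson's r of log2(RPKM + 0.1) over the 12 samples among 8909 genes, as a description only, since the points share the difference between stages. The genes most like Kdr were Tie1 (0.992), Podxl (0.991) and Cdh5 (0.987), of which Tie1 belongs to the set and Cdh5 to the endothelial markers. Those most like Vegfa were Bhlhe40 (0.968), Ttc19 (0.964) and Tmem63b (0.960). For Tek they were Tpm4, Itga6 and Dpysl2 (each 0.996), and for Angpt2 they were Rasa2 (0.989), Ganab (0.988) and Mdm4 (0.988).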

How the data were processed

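Total RNA libraries depleted of ribosomal RNA were sequenced by the authors, whose processing notes name cutadapt 2.6, STAR 2.5.3a, HOMER 4.11.1 and DESeq2 1.12.4, with mapping to GRCm38. The deposited tables, 1 per stage, give RPKM per gene and sample. They also hold the authors' mean values and comparison columns (fold change and false discovery rate), which were not used. The genes of the set and the gene and marker lists were chosen with earlier results of these data known.

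Each stage was fitted alone with limma 3.58.1 (R 4.3.3; lmFit, eBayes with trend) on log2(RPKM + 0.1), over genes with a mean RPKM above 1, with Benjamini-Hochberg adjustment over all genes tested and the method first tested on simulated data. The filter took the mean over the 6 samples of a stage. A gene with a mean below 1 RPKM in 1 group could therefore pass only through the other, which fixed its direction. Besides the genes named above, this held for adult Nos3 and Pdgfrb, called higher, and for adult Angpt1 (icKO mean 0.446 RPKM). RPKM is not a count, and on this scale changes at low levels come out too small. Calls were made where the adjusted p was under 0.05 and the log2 difference lay beyond 1 in size. Replicate numbers come from the sample titles. Depth was estimated from the spacing of low RPKM values of genes with 1 transcript, 64.9% to 72.1% of which lay within 0.1 of a whole read (20% by chance), and read numbers used the longest transcript. Gene positions came from the GENCODE annotation and promoters from RefSeq, both on GRCm38.

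The genes named were the whole set, Med30, and per pathway list and stage up to 2 called genes with the largest fold change in each direction whose groups did not overlap. Hif1a, Pgk1, Bnip3, Pdk1, Nrp1, adult Slc2a1 and E10.5 Grb14 fell outside that rule and were chosen after their values were seen. Alternatives covered the pseudocount, filter, scaling, variance trend, replicate block and leaving out each sample.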

Additional observations from a re-analysis of the deposited data

How the results depend on the processing

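Fold changes of the set kept their size or moved by over 1 SD in 233 and 14 of the alternative values, and no called value reversed. At E10.5, leaving the filter off gave 0 of the set lower by either rule, 0 pathway genes lower, and 0 higher and 1 lower of all genes, beside 26 and 59. A mean RPKM above 5 gave 2 of the set lower at an adjusted p under 0.05 (Vegfb added), 9 higher and 34 lower of all genes. Scaling without the 20 most abundant genes gave 1 of the set higher at an adjusted p under 0.05 (Vegfc), and 48 higher and 36 lower of all genes. A pseudocount of 1 gave 12 and 36, quantile normalization 37 lower, and eBayes without trend 38 lower. Leaving out 1 sample gave 1 to 2 of the set lower at an adjusted p under 0.05 (2 without Ctrl replicate 2), 0 to 2 pathway genes lower (0 without Ctrl replicate 3, 2 without Ctrl replicate 2 or cKO replicate 3), and 9 to 36 higher and 18 to 100 lower of all genes. In adults, a mean RPKM above 5 left out Angpt1 and so gave 0 of the set called lower, 12 pathway genes higher and 7 lower (beside 21 and 11), and 1687 and 454 of all genes (beside 2668 and 804). Median-ratio scaling gave 3 of the set called lower, 5 pathway genes higher, and 1053 and 1511 of all genes. Quantile normalization gave 6 pathway genes higher, and 1192 and 1349 of all genes. Scaling without the 20 most abundant genes gave 11 pathway genes higher. Leaving out 1 sample gave 0 to 2 of the set called higher and 0 to 3 at an adjusted p under 0.05, in each case the higher count being without Ctrl replicate 3. Where no construction is named, the cause was not tested.

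Same-numbered samples deviated together with correlations of 0.01, 0.10 and -0.07 at E10.5 and 0.15, 0.04 and 0.05 in adults. The means with other numbers were -0.02, -0.04 and 0.05 at E10.5 and -0.08, -0.02 and -0.02 in adults. Of 6 samples, 2 at E10.5 and 4 in adults correlated best with their own number. These few values cannot decide whether same-numbered samples were paired, and the main fits used no pairing. With the replicate number as a block, 2 of the adult set were higher at an adjusted p under 0.05 (Flt1 and Tek), beside 0. At about 11990000 to 20050000 reads, adult Angpt2 and Vegfc rest on about 2 to 17 reads a sample, which limits what can be detected for them.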
